A study of Mus musculus with 4 samples.

Results

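The tricarboxylic acid (TCA) cycle and the enzymes that feed it with pyruvate and glutamate were examined as a set of 34 listed genes, of which 33 were measured among 17734 named genes on the arrays. The members were taken from a fixed list of TCA cycle, pyruvate dehydrogenase, anaplerosis and glutamate enzymes, matched to probes by current symbol or by an older one. Mpc2 was found under its older symbol, Idh3a and Ogdh each had a second probe, and Mpc1, the partner of Mpc2, was not analysed here. The cells were 3T3L1, an established mouse preadipocyte line that turns into fat cells in culture when given an inducing mixture. All 4 samples had received that mixture, 0.5 mM IBMX (a phosphodiesterase inhibitor), 1 µM dexamethasone (a glucocorticoid) and 1 µg/ml insulin, for 48 hours. The control group (n = 2) had no further agent, and the berberine group (n = 2) had 13.47 µM berberine, a plant alkaloid, as well. The comparison addresses which genes berberine alters while differentiation is being induced. Groups were taken from the sample titles, because the treatment text is the same for all samples.

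The cycle oxidises acetyl-CoA, which the pyruvate dehydrogenase complex makes from pyruvate inside mitochondria, and passes the electrons to the respiratory chain. In fat cells part of the citrate leaves the mitochondrion and supplies acetyl-CoA and NADPH for fatty acid synthesis, and pyruvate carboxylase replaces the carbon that leaves. Glutamate enters as 2-oxoglutarate through glutamate dehydrogenase or the transaminases. Several reactions have a mitochondrial and a cytosolic enzyme encoded by different genes, so a change in one need not be shared by the other.

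Each sample was measured on 1 one-colour array, and values are log2 probe intensities after quantile normalization, which gives every array the same distribution. A probe is called dim here when a group mean lies under the 25th percentile of all values, 95.8 on the intensity scale. The median deposited intensity was 350 to 423 on the control arrays and 237 to 280 on the berberine arrays, and the arrays of a group correlated at 0.991 and 0.994 over all probes. Intensities depend on the probe, so levels of different genes are not compared. Changes are berberine minus control with limma's standard error (SE) and its p-value adjusted by Benjamini-Hochberg over 26408 probes. A gene is said to have risen or fallen where that p was under 0.05. Whether the samples were separate cultures is not given by the labels, so a p-value here reflects the spread among these arrays alone, which may be technical, and 2 arrays a group limit the precision.

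The set changed in both directions. Of the 33 measured members, 13 fell (39.4%), 6 rose (18.2%) and 14 did not pass the test. Over all 17734 genes, 18.2% fell and 30.0% rose by the same rule. These shares are the background for the counts of smaller groups of genes below. With a change of at least 2-fold also required, 11 members fell (33.3%) and 5 rose (15.2%), against 11.5% and 12.9% of all genes. The median change was -0.16 for the members and 0.20 for all genes on the log2 scale. Among genes with a mean over all arrays above log2 10, 40.7% of 27 members fell and 18.5% rose, against 22.5% and 37.9% of 7557 genes. Every berberine array was below both control arrays for 15 members and above both for 8, and the groups overlapped for 10. Overlap was not counted over all genes, so these 3 counts do not set the members apart from other genes. In bulk RNA such as this, fewer cells of a type and less RNA per cell cannot be told apart.

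**Figure D1:**
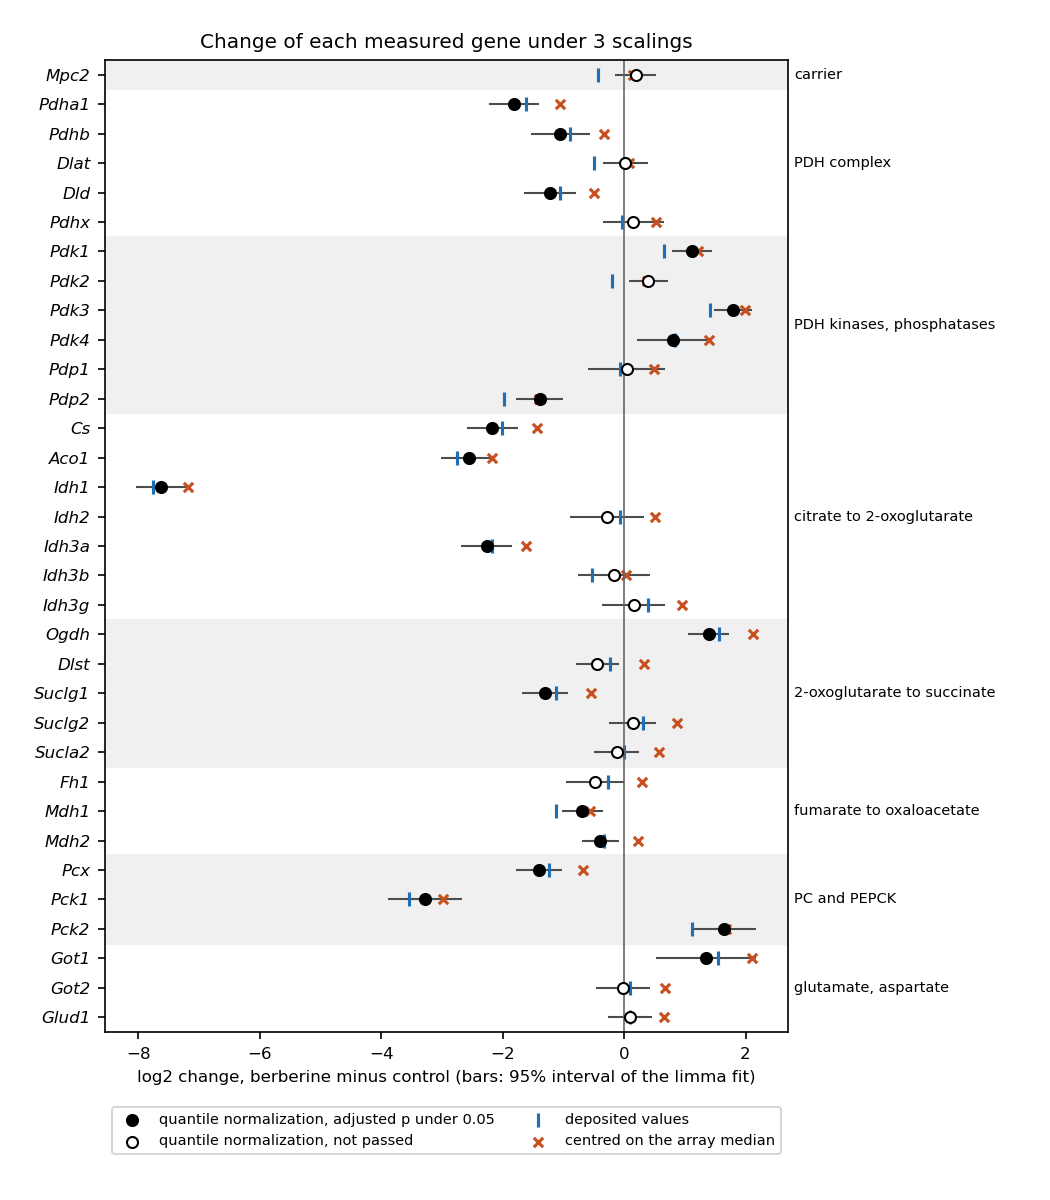
Berberine minus control (log2) for the 33 measured members, ordered by role, with the 95% confidence interval of limma as bars. Filled points passed at an adjusted p of 0.05 and open points did not. Blue ticks give the change on deposited values and orange crosses that with each array centred on its median. After quantile normalization Idh1 stands at -7.63 at the far low end, and Pdk3 has the highest value at 1.79.

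The size of these counts depends on the scaling. Without any normalization of the deposited values 11 members fell (33.3%) and 4 rose (12.1%), against 16.7% and 11.2% of all genes, with a median change of -0.26 for the members and -0.02 for all genes. With each array centred on its median 10 fell (30.3%) and 12 rose (36.4%), against 12.8% and 44.3% of all genes, with medians of 0.30 and 0.55. The share of members that fell was above that of all genes under each of these scalings.

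The 5 pyruvate dehydrogenase subunits did not move together: 3 fell and 2 did not pass. Pdha1, the catalytic E1 alpha subunit that the kinases phosphorylate, was at 15.94 and 15.68 in control and at 14.09 and 13.88 in berberine. Both berberine arrays were well below the control arrays, a fall of 3.54-fold (log2 change -1.82, SE 0.16, adjusted p = 0.00116). Under centring the change of Pdha1 was -1.05. Pdhb, the other E1 subunit, went from 14.69 and 14.24 to 13.43 and 13.41 (log2 change -1.05, adjusted p = 0.0098). Dld, the E3 dehydrogenase that the 2-oxoglutarate dehydrogenase complex also uses, went from 14.58 and 14.71 to 13.25 and 13.59 (log2 change -1.22, adjusted p = 0.00428). The groups did not overlap for either gene. The Pdhb call is lost on deposited values, under centring, under 75th percentile scaling and without either berberine array (adjusted p up to 0.0925 with an array left out), and the Dld call under centring.

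Dlat, the E2 core that carries the acetyl group, was at 10.26 and 10.49 in control and at 10.44 and 10.35 in berberine, and its change of 0.02 had a 95% interval of -0.35 to 0.39. Pdhx, which anchors E3 to that core, changed by 0.15 (interval -0.34 to 0.65), and under centring it rose by 0.53 (adjusted p = 0.0464). Mpc2, a subunit of the carrier that brings pyruvate into mitochondria, was at 9.58 and 9.42 in control and at 9.70 and 9.67 in berberine. Its berberine arrays were slightly above the control arrays, but the change of 0.19 (interval -0.15 to 0.52) did not pass (adjusted p = 0.291).

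The enzymes that switch the complex off and on changed too. Pyruvate dehydrogenase kinases inactivate E1 by phosphorylation and the Pdp phosphatases reverse it. Of the 4 kinases 3 rose, and of the 2 phosphatases 1 fell, beside 30.0% and 18.2% of all genes. Pdk3 showed the largest rise of any member, from 9.91 and 9.85 to 11.65 and 11.69, or 3.46-fold (log2 change 1.79, SE 0.12, adjusted p = 0.000568). Pdk1, a kinase known as a hypoxia target, went from 10.00 and 9.86 to 11.04 and 11.05 (2.17-fold, adjusted p = 0.00244). The 2 berberine arrays of each kinase were close together and far above control. On deposited values the rise of Pdk1 was 0.66 and did not pass.

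Pdk4, a kinase known to respond to glucocorticoids and to fasting, was at 12.33 and 11.76 in control and at 12.98 and 12.73 in berberine. The berberine arrays were higher (1.75-fold, log2 change 0.81, SE 0.23, adjusted p = 0.0413), but the control arrays stood apart. That call is lost on deposited values and without control 2, berberine 1 or berberine 2 (adjusted p up to 0.227), and the change was 1.40 under centring. Pdk2 gave 0.40 with an interval of 0.08 to 0.73 and missed the threshold (adjusted p = 0.0511). Pdp2, one of the phosphatases, went from 10.03 and 10.30 to 8.73 and 8.81, which is 2.63-fold lower (log2 change -1.39, SE 0.15, adjusted p = 0.00208), with -1.98 on deposited values. Pdp1, the calcium-stimulated phosphatase, was at 12.21 and 11.52 in control and at 11.89 and 11.92 in berberine, so the groups overlapped.

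**Figure D2:**
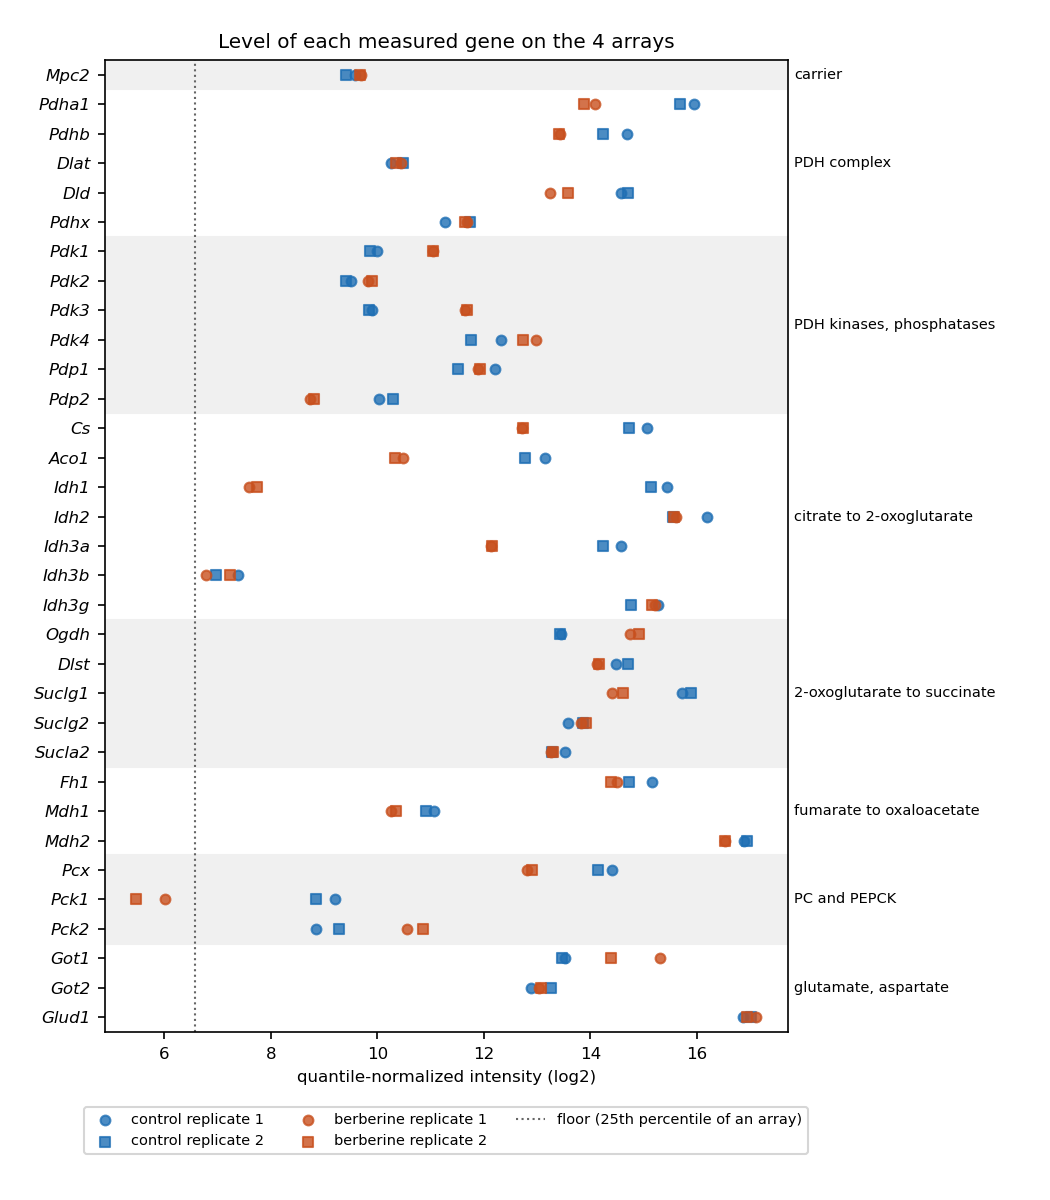
Quantile-normalized log2 intensity of each member on the 2 control and 2 berberine arrays, 1 row per gene grouped by role, with the 25th percentile of all values as a line. The berberine points of Pck1 lie under that line and those of Idh1, at 7.59 and 7.74, lie far left of its control points at 15.44 and 15.14.

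From citrate to 2-oxoglutarate, 4 of 7 genes fell, beside 18.2% of all genes, and 3 did not pass. Cs, citrate synthase, which joins acetyl-CoA to oxaloacetate, was at 15.06 and 14.72 in control and at 12.72 and 12.74 in berberine. The fall was 4.48-fold (log2 change -2.17, SE 0.16, adjusted p = 0.000742). Aco1, the cytosolic aconitase that doubles as an iron-responsive RNA-binding protein, went from 13.14 and 12.78 to 10.48 and 10.33, a fall of 5.90-fold (log2 change -2.56, SE 0.17, adjusted p = 0.000569). Over the 4 scalings tried, the log2 change of Cs lay between -2.17 and -1.44 and that of Aco1 between -2.75 and -2.18.

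Idh1, the cytosolic NADP-dependent isocitrate dehydrogenase and a source of NADPH for lipid synthesis, had the largest change of the set. Its deposited intensities were 46518 and 29510 in control and 149 and 196 in berberine. The probe was bright in control and close to the dim range in berberine. After normalization these were 15.44 and 15.14 against 7.59 and 7.74, a difference of 198-fold (log2 change -7.63, SE 0.16, adjusted p = 5.77e-05). It rests on 1 probe. Idh2, the mitochondrial NADP-dependent enzyme, was at 16.19 and 15.55 in control and at 15.60 and 15.58 in berberine, so the groups overlapped and the change of -0.28 (interval -0.89 to 0.33) did not pass.

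The NAD-dependent isocitrate dehydrogenase of the cycle has a catalytic alpha subunit and the partners beta and gamma. The brighter probe of Idh3a, the alpha subunit, went from 14.57 and 14.23 to 12.14 and 12.15, a fall of 4.78-fold (log2 change -2.26, SE 0.16, adjusted p = 0.000682). The other probe went from 12.74 and 13.00 to 12.39 and 12.23, a fall of only 1.47-fold (log2 change -0.56, SE 0.15, adjusted p = 0.0363). The change of the brighter probe was -1.61 under centring. After quantile normalization the probes shared a direction but not a size, and under centring the second had the opposite sign, 0.07. The call on the second is lost on deposited values, under centring and under 75th percentile scaling. It is also lost in 3 of the 4 fits that leave out an array. Idh3g changed by 0.16 (interval -0.36 to 0.68) and did not pass, but under centring it rose by 0.96 (adjusted p = 0.0282). Idh3b, whose probe was near the dim range, gave -0.16 with overlapping groups.

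From 2-oxoglutarate to succinate, 1 gene rose, 1 fell and 3 did not pass. Ogdh, the E1 subunit of the 2-oxoglutarate dehydrogenase complex, was at 13.45 and 13.43 in control and at 14.75 and 14.92 in berberine. It rose 2.63-fold (log2 change 1.39, SE 0.13, adjusted p = 0.00142), so it moved opposite to Dld, with which it shares the complex. Under centring the change was 2.13. Its second probe was far dimmer, at 7.37 and 7.23 in control and 7.99 and 7.63 in berberine, and did not pass (log2 change 0.51, adjusted p = 0.0654). Dlst, the E2 subunit, gave -0.44 (interval -0.79 to -0.09, adjusted p = 0.0506). Its value was -0.24 on deposited values and 0.33 under centring.

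Succinyl-CoA ligase pairs the alpha subunit Suclg1 with either of the beta subunits Suclg2 and Sucla2, which set whether GTP or ATP is made. Suclg1 went from 15.73 and 15.89 to 14.40 and 14.61, a fall of 2.47-fold (log2 change -1.31, SE 0.14, adjusted p = 0.00234). The change of Suclg1 was -0.55 under centring. Suclg2 gave 0.14 (interval -0.25 to 0.53) and Sucla2 gave -0.12 (interval -0.49 to 0.24). Under centring Suclg2 rose by 0.87 (adjusted p = 0.00857), and Sucla2 had the opposite sign, 0.57, with an adjusted p of 0.0484.

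From fumarate to oxaloacetate the changes were small. Mdh1, the cytosolic malate dehydrogenase of the malate-aspartate shuttle, went from 11.07 and 10.92 to 10.26 and 10.35, a fall of 1.61-fold (log2 change -0.69, SE 0.13, adjusted p = 0.0119) whose call is lost without either berberine array. Mdh2, the mitochondrial enzyme, was at 16.89 and 16.94 in control and at 16.52 and 16.52 in berberine (log2 change -0.39, adjusted p = 0.0492). Its arrays did not overlap, yet no direction holds for it: the change was 0.23 under centring, and the call is lost on deposited values and with any array left out. Fh1, fumarate hydratase, gave -0.48 (interval -0.96 to -0.01) and did not pass (adjusted p = 0.0894), and was at 0.30 under centring.

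The enzymes at the pyruvate and oxaloacetate branch all changed. Pcx, pyruvate carboxylase, which makes oxaloacetate from pyruvate and is abundant in fat cells, was at 14.40 and 14.14 in control and at 12.82 and 12.91 in berberine. The fall was 2.65-fold (log2 change -1.40, SE 0.15, adjusted p = 0.00195), with a log2 change of -0.68 under centring. Pck1, the cytosolic phosphoenolpyruvate carboxykinase, which serves glycerol synthesis in fat cells, had deposited intensities of 827 and 510 in control and 53 and 58 in berberine. The berberine arrays were dim, so the fall is a bound: at least 5.43-fold against the 25th percentile (fitted log2 change -3.28, SE 0.24, adjusted p = 0.000687). Pck2, the mitochondrial carboxykinase and a known ATF4 target, moved the other way, from 8.84 and 9.29 to 10.55 and 10.85. It rose 3.11-fold (log2 change 1.64, SE 0.21, adjusted p = 0.00352), with an adjusted p of 0.0528 without berberine 2.

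At the glutamate and aspartate entry, Got1 rose and the other genes did not pass. Got1, the cytosolic aspartate transaminase, was at 13.53 and 13.46 in control and at 15.30 and 14.38 in berberine. Both berberine arrays were higher but stood apart (2.54-fold, log2 change 1.35, SE 0.32, adjusted p = 0.0244), and the call is lost without control 1, control 2 or berberine 1 (adjusted p up to 0.151). The change was 2.10 under centring. Got2, the mitochondrial transaminase, gave -0.02 (interval -0.46 to 0.43) with overlapping groups, and 0.67 with an adjusted p of 0.0254 under centring. Glud1, the mitochondrial glutamate dehydrogenase, was bright on all arrays, at 16.86 and 17.02 in control and at 17.12 and 16.95 in berberine. Its change of 0.10 had an interval of -0.27 to 0.46, and under centring it rose by 0.66 (adjusted p = 0.03).

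The sequences just before the start of the genes were searched because members that share a pathway moved in opposite directions. RefSeq promoters (build GRCm38.p6) were matched for 32 of the 34 listed genes, and the 250 bases before each start were read on both strands. These genes have 42 windows in the table, since some have several starts. The 4 windows shown are those of Pck2 and Got1, which rose and hold the same site, of Pck1, the cytosolic counterpart of Pck2, and of Idh1, the member with the largest measured fall. Capitals mark TTACATCA in Pck2 and TTGCATCA in Got1, both matches on the reverse strand to TGATGNAA, the C/EBP-ATF composite site through which ATF4 acts. In Pck1 they mark TTACGTCA, a cAMP response element variant, and in Idh1 the CCAAT box and 2 GC boxes read as CCGCCC.
Pck2: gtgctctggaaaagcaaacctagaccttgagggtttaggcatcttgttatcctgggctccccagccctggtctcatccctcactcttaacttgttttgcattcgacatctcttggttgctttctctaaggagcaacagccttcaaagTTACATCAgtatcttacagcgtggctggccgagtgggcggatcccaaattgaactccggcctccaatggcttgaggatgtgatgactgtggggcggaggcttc
Got1: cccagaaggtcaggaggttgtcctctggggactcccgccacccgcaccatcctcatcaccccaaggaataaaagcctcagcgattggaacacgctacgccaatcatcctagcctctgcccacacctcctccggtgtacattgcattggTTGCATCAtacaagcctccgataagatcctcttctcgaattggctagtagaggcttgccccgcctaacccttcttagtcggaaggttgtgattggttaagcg
Pck1: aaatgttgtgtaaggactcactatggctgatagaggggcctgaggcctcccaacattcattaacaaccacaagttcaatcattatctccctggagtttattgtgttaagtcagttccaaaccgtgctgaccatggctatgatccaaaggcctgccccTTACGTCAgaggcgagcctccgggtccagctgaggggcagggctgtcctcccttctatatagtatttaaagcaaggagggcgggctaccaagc
Idh1: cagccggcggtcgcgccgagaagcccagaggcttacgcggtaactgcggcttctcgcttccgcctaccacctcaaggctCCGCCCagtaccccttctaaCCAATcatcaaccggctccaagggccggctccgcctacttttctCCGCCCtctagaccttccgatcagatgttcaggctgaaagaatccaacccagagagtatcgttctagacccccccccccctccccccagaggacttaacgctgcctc
The Pck2 window is chr14:55540016-55540265 on the plus strand and the Got1 window chr19:43524606-43524855 on the minus strand. The Pck1 window is chr2:173152823-173153072 on the plus strand. The Idh1 window is chr1:65186480-65186729 on the minus strand, 1 of 2 starts in the table. Each sequence is read 5′ to 3′ in the direction of its gene and ends at the base before the start.

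Pck2 and Got1 were the only members with TGATGNAA, in 2 of the 42 windows (4.76%). That is close to the 3.45% of all 32851 promoter windows that held it. The match lay 103 to 96 bases before the start of Pck2 and 102 to 95 before that of Got1. TTACGTCA was found in Pck1 alone among the members, 93 to 86 bases before its start, and in 0.447% of all windows. Counted by window, the full element TGACGTCA was in 4 of the 42 (Mdh2 and Ogdh) and in 1.55% of all windows. Its shorter core TGACG, which overlaps both of the former, was in 13 of the 42 (31%) and in 17.8% of all. CCAAT was in 22 of the 42 (52.4%) and in 33.8% of all, and GGGCGG in 26 of the 42 (61.9%) and in 32.7% of all. The C/EBP site TTGCNNAA was in 5 member windows (11.9%, against 9.56% of all windows) and CACGTG in 6 (14.3%, against 6.02% of all). TGCGCA was in 5 (11.9%, against 6.43% of all) and TCACNCCA, a sterol response element, in 3 (7.14%, against 3.67% of all). AGGTCA was in 5 member windows (11.9%, against 14% of all). AAGGTCA, which contains it, was in that of Got1, and in 4.08% of all windows. TATAAA was in Got2 (12.4% of all windows) and the NRF1 site in Sucla2 (3.74% of all). The nuclear receptor direct repeat was in no member (0.0609% of all). All 15 motifs were chosen after values had been seen, and a match shows only that these letters lie in the window.

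Within the set, the pairs of enzymes that run the same reaction in cytosol and mitochondria were then set side by side. All 5 members of the set described above as cytosolic passed the test. Of these, 4 were lower (Idh1, Aco1, Pck1, Mdh1) and 1 higher (Got1), beside 18.2% and 30.0% of all genes. Cytosolic enzymes outside the set, such as Me1 and Gpt, are given below and are not counted here. As given above, the calls of Mdh1 and Got1 are lost when some arrays are left out. Of the 4 mitochondrial counterparts, Pck2 rose, Mdh2 fell (though 0.23 under centring) and Idh2 and Got2 did not pass. The change of Idh1 minus that of Idh2 was -7.35 on the log2 scale, while arrays of a group differed by at most 0.34 in this difference. For Pck1 minus Pck2, where Pck1 was dim in berberine, it was -4.08 with Pck1 set at the 25th percentile, a bound on a difference that may be larger. For Got1 minus Got2 it was 1.36, with gaps of 0.45 and 0.96. For Mdh1 minus Mdh2 it was -0.30, with gaps of 0.20 and 0.08, and -0.80 on deposited values. Differences within an array do not depend on centring. The exact two-sided permutation test cannot go below p = 0.33 with 2 against 2 arrays, so it says nothing on whether the members of a pair differ, and no other test of these differences was run.

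**Figure D3:**
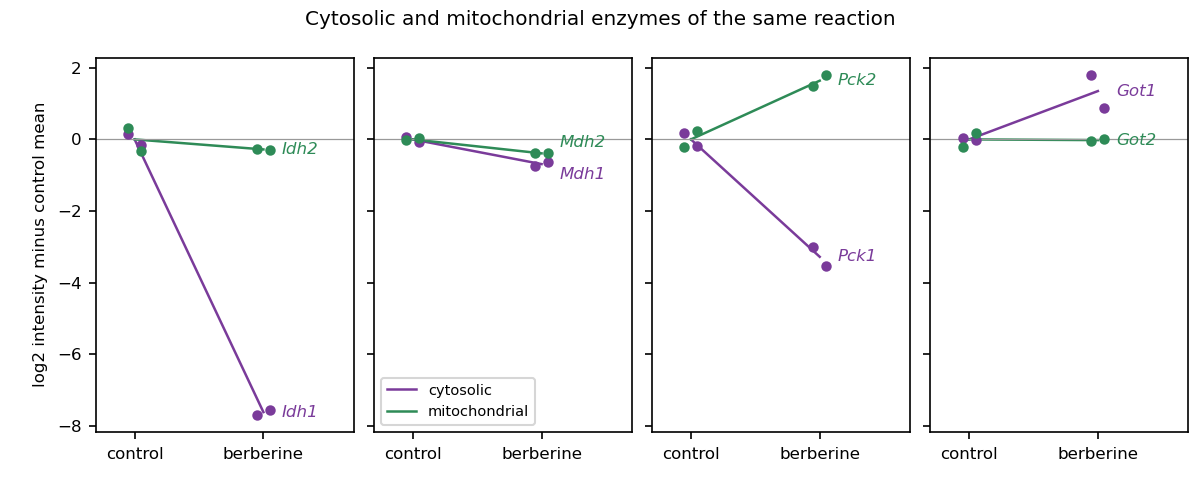
Log2 intensity on each array minus the control mean of the gene, for 4 pairs of cytosolic (purple) and mitochondrial (green) enzymes, with lines joining the group means. Idh1 and Pck1 drop while Idh2 stays near 0 and Pck2 lies above 0, and Got1 lies above 0 with its berberine arrays spread apart.

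Neighbouring genes of the pathway outside the set were taken from a list of 36, of which 28 were measured. Of these, 10 fell (35.7%), 7 rose (25%) and 11 did not pass, with a median change of -0.32, beside the 18.2% and 30.0% of all genes. The step from succinate to fumarate is carried out by succinate dehydrogenase, which is also respiratory complex II. Its iron-sulfur subunit Sdhb was at 15.96 and 16.25 in control and at 11.48 and 11.53 in berberine, a fall of 24.3-fold (log2 change -4.60, adjusted p = 0.000104). The membrane anchor Sdhc fell 2.84-fold (log2 change -1.51, or -0.77 under centring), and the assembly factors Sdhaf4 and Sdhaf1 fell 2.87-fold and 2.13-fold. The flavoprotein subunit Sdha (log2 change -0.14) and the anchor Sdhd (-0.44) did not pass.

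Of 8 measured carriers and malic enzymes that move citrate and malate equivalents, 4 fell, 2 rose and 2 did not pass. Over all genes 18.2% fell and 30.0% rose. Slc25a1, which exports citrate for lipid synthesis, fell 13.5-fold from 14.07 and 14.30 to 10.44 and 10.42 (adjusted p = 0.000132). The dicarboxylate carrier Slc25a10 fell 6.30-fold on its brighter probe, with a log2 change of -2.65, and had a log2 change of -1.60 on its other. The oxoglutarate carrier Slc25a11 fell 5.24-fold (log2 change -2.39, or -1.68 under centring). The aspartate-glutamate carriers diverged: Slc25a12 fell 4.57-fold and Slc25a13 rose 2.66-fold (adjusted p = 0.0055), though this did not pass once berberine 1 or berberine 2 was left out. Me1, the cytosolic malic enzyme and another source of NADPH, gave -0.27 and did not pass (adjusted p = 0.134). Me3, a mitochondrial malic enzyme, was near the dim range and rose 2.34-fold, though not on deposited values or once a berberine array was left out.

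The glutamine and alanine enzymes were split as well. Glul, glutamine synthetase, fell 5.11-fold from 16.95 and 16.87 to 14.55 and 14.57 (log2 change -2.35, adjusted p = 0.000279), with -1.67 under centring. The cytosolic alanine transaminase Gpt fell 3.81-fold, whereas the mitochondrial Gpt2, a known ATF4 target, rose 3.40-fold (log2 change 1.77, or 2.46 under centring, adjusted p = 0.000843). The glutamate carrier Slc25a22 rose 2.14-fold, a call lost without berberine 1. Dhtkd1, a relative of Ogdh, rose 2.34-fold, a call lost on deposited values, and Mdh1b rose 2.11-fold from a low level, a call lost under 5 of the alternatives. The lipoic acid synthase Lias, which supplies the cofactor of Dlat and Dlst, rose by 0.74 on the log2 scale, a call lost on deposited values and without control 2 or either berberine array. The other 8 listed genes were not analysed here.

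**Figure D4:**
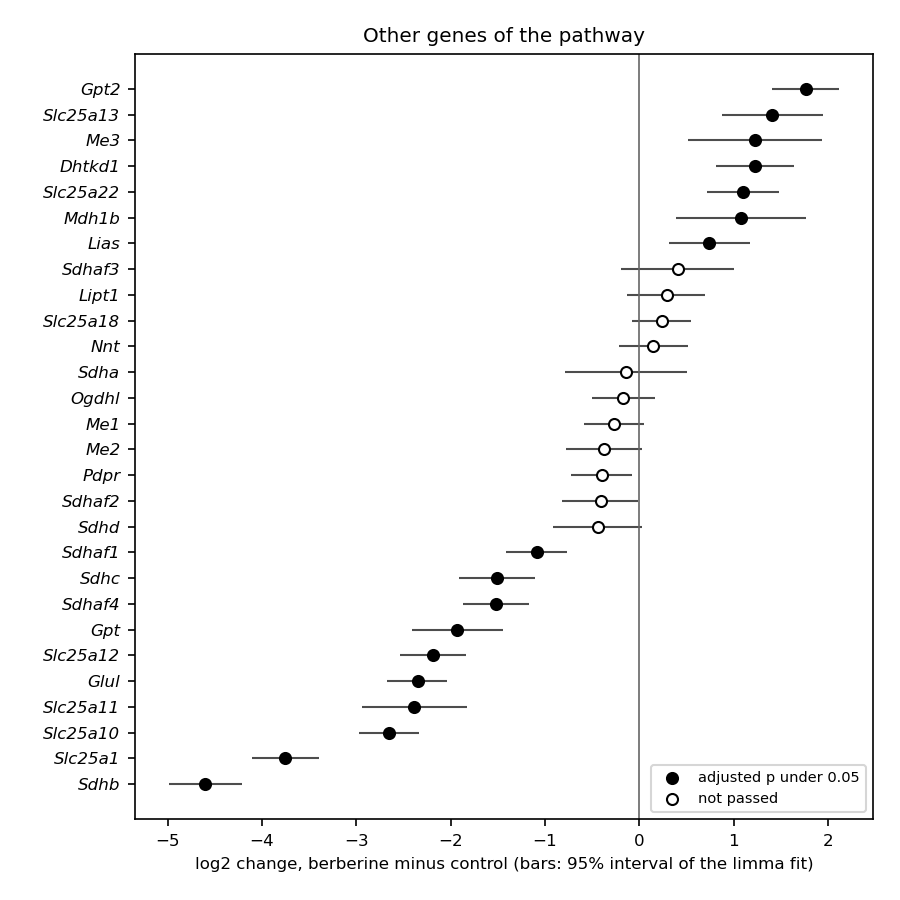
Berberine minus control (log2) with 95% confidence intervals for the 28 measured pathway genes outside the set. Filled points passed at an adjusted p of 0.05 and open points did not. Sdhb at -4.60 and Slc25a1 at -3.76 lie lowest, and Gpt2 at 1.77 lies highest.

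Markers of fat cells moved in the same comparison. Of 16 mature adipocyte markers 10 passed as lower and 3 as higher, beside 18.2% and 30.0% of all genes. Their summed intensity was 715346 to 727580 on the control arrays and 51334.8 to 53905.5 on the berberine arrays. The 3 that rose were Lipe (2.02-fold), Slc2a4 (1.49-fold) and Pparg, which was dim in both groups. All 3 of these calls are lost on deposited values. Cd36 did not pass on its brighter probe (log2 change -0.45) but fell on its other (-3.39). Adipoq, the adiponectin gene, fell 125-fold, while Lpl, like Pparg, was dim on all arrays. Of 10 measured preadipocyte and fibroblast markers 4 fell and 4 rose, with sums of 501238 to 535464 in control and 452556 to 473922 in berberine. Most of these sums came from Vim and S100a4, which did not pass, so the sums hide changes of single markers. Fn1 fell at least 326-fold, for example, and Col1a1 rose 2.81-fold. Dlk1 fell 3.09-fold on its brighter probe but did not pass on its other (log2 change -0.20). The calls of Pdgfra, Col3a1, Col1a2 and Cd34 are lost on deposited values. The sums for macrophage markers were 10508.1 to 11717.8 in control and 3770.23 to 3846.41 in berberine, mostly from Cd14 (1 of 7 rose and 2 fell, with Adgre1 dim on all arrays). Those for endothelial markers were 1191.33 to 1373.83 and 1950.26 to 2111.34 (4 of 6 rose), with no marker above log2 10 on any array. For muscle markers they were 1897.28 to 2099.79 and 3164.67 to 3289.39 (2 of 4 measured rose). Over all genes 30.0% rose. Of the endothelial and muscle calls, those of Tie1, Tek, Vwf, Des and Tnnt3 are lost on deposited values, and only that of Cdh5 is kept. The part of these differences in the changes of the cycle genes was not tested.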

How the data were processed

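RNA of 4 samples, 2 control and 2 berberine, was hybridised to one-colour arrays. The deposited table holds intensity values, whole numbers on a linear scale, as the authors left them; how they were extracted and normalized is not given in the sources used here. Of 26423 probes, 20377 had 1 gene symbol in the platform annotation and 6046 were unnamed here. After dropping 15 probes with a value of 0 or less, 26408 were quantile-normalized on the log2 scale and fitted with limma 3.58.1 in R 4.3.3 (2 residual and 2.89 prior degrees of freedom), after the code was tested on simulated data. The brightest probe over all arrays stands for a gene. Where the dimmer group is under the 25th percentile, the fold is a bound against it.

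Every member is accounted for. Values on each array are given for members past an adjusted p of 0.05 and 2-fold, for those with a second probe, and for Pcx, Pdk4, Pdha1, Cs, Idh1, Mpc2, Pck1 and Glud1 whatever the result; pathway genes outside the set were named by the same threshold, with Me1 whatever its result. The values on each array of Dlat, Pdp1, Idh2, Mdh1 and Mdh2, and the naming of Sdha, Sdhd and Lias, were added after values had been seen. The members and lists were chosen with earlier results of these data known. Alternatives were other scalings, an offset of 16, a filter on dim probes, the mean of a gene's probes, trend and robust moderation, a replicate block, and leaving out each array after normalization.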

Additional observations from a re-analysis of the deposited data

How the results depend on the processing

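At an adjusted p of 0.05, 11838 probes passed. On deposited values 6687 did, with at least 2-fold also required 5806 did, and with an array left out 4339 to 10772 did, the lowest without berberine 1 and 4621 without berberine 2. Of the members 19 passed, against 15 to 22 under the other settings and 14 to 18 with an array left out. Centring on the median gave 12 members higher in place of 6. Over 50 genes and all alternatives, 516 of 600 values kept both direction and side of the threshold, 36 kept the direction and lost the call, 15 gained one and 33 changed sign. Of the genes that had passed, the sign on the brightest probe changed for Mdh2 alone. Under centring the changes with another sign were Dlst 0.33, Fh1 0.30, Got2 0.67, Idh2 0.51, Idh3b 0.03, Mdh2 0.23, Me1 0.41 and Sucla2 0.57, of which Got2 and Sucla2 then passed the test. Pdhx, Idh3g, Suclg2 and Glud1 kept their sign under centring and also passed there, as higher. On deposited values they were Dlat -0.49, Got2 0.10, Mpc2 -0.43, Pdhx -0.03, Pdk2 -0.20, Pdp1 -0.06 and Sucla2 0.00. Under 75th percentile scaling they were Dlat -0.18, Dlst 0.07, Fh1 0.04, Got2 0.41, Idh2 0.25, Me1 0.15, Mpc2 -0.12 and Sucla2 0.31. With an array left out, the values on both sides of 0 were -0.10 to 0.14 for Dlat, -0.08 to 0.39 for Pdhx, -0.30 to 0.38 for Pdp1, -0.60 to 0.04 for Idh2, -0.39 to 0.07 for Idh3b, -0.09 to 0.41 for Idh3g and -0.21 to 0.18 for Got2. The causes were not tested. The 13 members called with any array left out were Pdha1, Dld, Pdk1, Pdk3, Pdp2, Cs, Aco1, Idh1, Idh3a, Ogdh, Suclg1, Pcx and Pck1. With a replicate block 12760 probes and 18 members passed, Mdh2 being lost. Same-numbered arrays deviated with a correlation of 0.00352, so no deviation shared by number was seen. Whether the samples were paired cannot be told from this. Dim probes (Pck1 in berberine) give bounds only.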
